A study of Ostrinia furnacalis with 30 samples.

Results

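The eggshell and yolk genes of the Asian corn borer, *Ostrinia furnacalis*, were followed through 30 RNA-seq libraries. They were the annotated gene models whose description held chorion, vitellogenin, vitelline or yolk, and 24 of 20852 gene models met this rule. They comprised 12 chorion proteins, 4 chorion peroxidases, 3 vitelline membrane proteins, 1 vitellogenin, 2 microvitellogenins and 2 putative vitellogenin receptors. All 24 had an entry in RefSeq, and for 4 of them RefSeq gave a symbol of its own.

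The study sampled wild-type insects at 6 stages as whole animals (embryos taken soon after oviposition, 1st, 3rd and 5th instar larvae, pupae and adults) and, in the 3rd instar, 4 parts of the larval body (fat body, midgut, silk gland and hemolymph). Each stage or tissue had 3 libraries. Every library pooled several animals or their tissues, and no animal received a treatment. Pupae and adults were sexed first and then mixed in equal shares, so a pupal or adult library held the RNA of both sexes, and the ovary was not sampled on its own. The libraries were labelled as separate samples, and nothing more was stated about their origin, so p-values measure the spread between these pools. Values are FPKM (fragments normalised to the length of the gene model and the size of the library, with the authors' scaling between libraries), on which levels of different genes can be compared. The libraries held 10908503 to 17774377 recovered fragments, and intervals or floors based on them cover counting error only. Hemocyte markers were called higher in hemolymph for 10 of 13 genes and lower for 2, where 12.5% and 23% of all genes were. Fat body markers were called higher in fat body for 6 of the 8 tested of 9. They were lower for 1, where 15% of all genes were higher and 12.8% lower.

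Insect eggs are provisioned and wrapped inside the ovary. Vitellogenin, the main yolk precursor, is made in the fat body of adult or late pupal females, travels in the hemolymph and enters the oocyte through the vitellogenin receptor, an endocytic receptor of the oocyte surface. The follicle cells around the oocyte first secrete the vitelline membrane and then, late in egg formation, the chorion, whose small proteins come in moths from large families (classes A, B, CA, CB and high-cysteine forms) that lie in clusters as divergently transcribed pairs. Peroxidases cross-link eggshell proteins in *Drosophila* and mosquitoes.

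The 24 gene models did not share a pattern. The highest mean was in the adult for 11, the embryo for 4, the hemolymph for 3, the pupa for 2, the 3rd instar for 2, the 1st instar for 1 and the midgut for 1. Vitellogenin, 1 of the 3 vitelline membrane genes and 9 of the 12 chorion genes were highest in the adult, both receptors and 2 of the 4 peroxidases in the embryo, and both microvitellogenins in the larval hemolymph. Of all recovered fragments, the 24 gene models took 0.779%, 0.525% and 0.337% in the 3 adult libraries and 0.562%, 0.596% and 0.418% in the 3 hemolymph libraries.

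**Figure D1:**
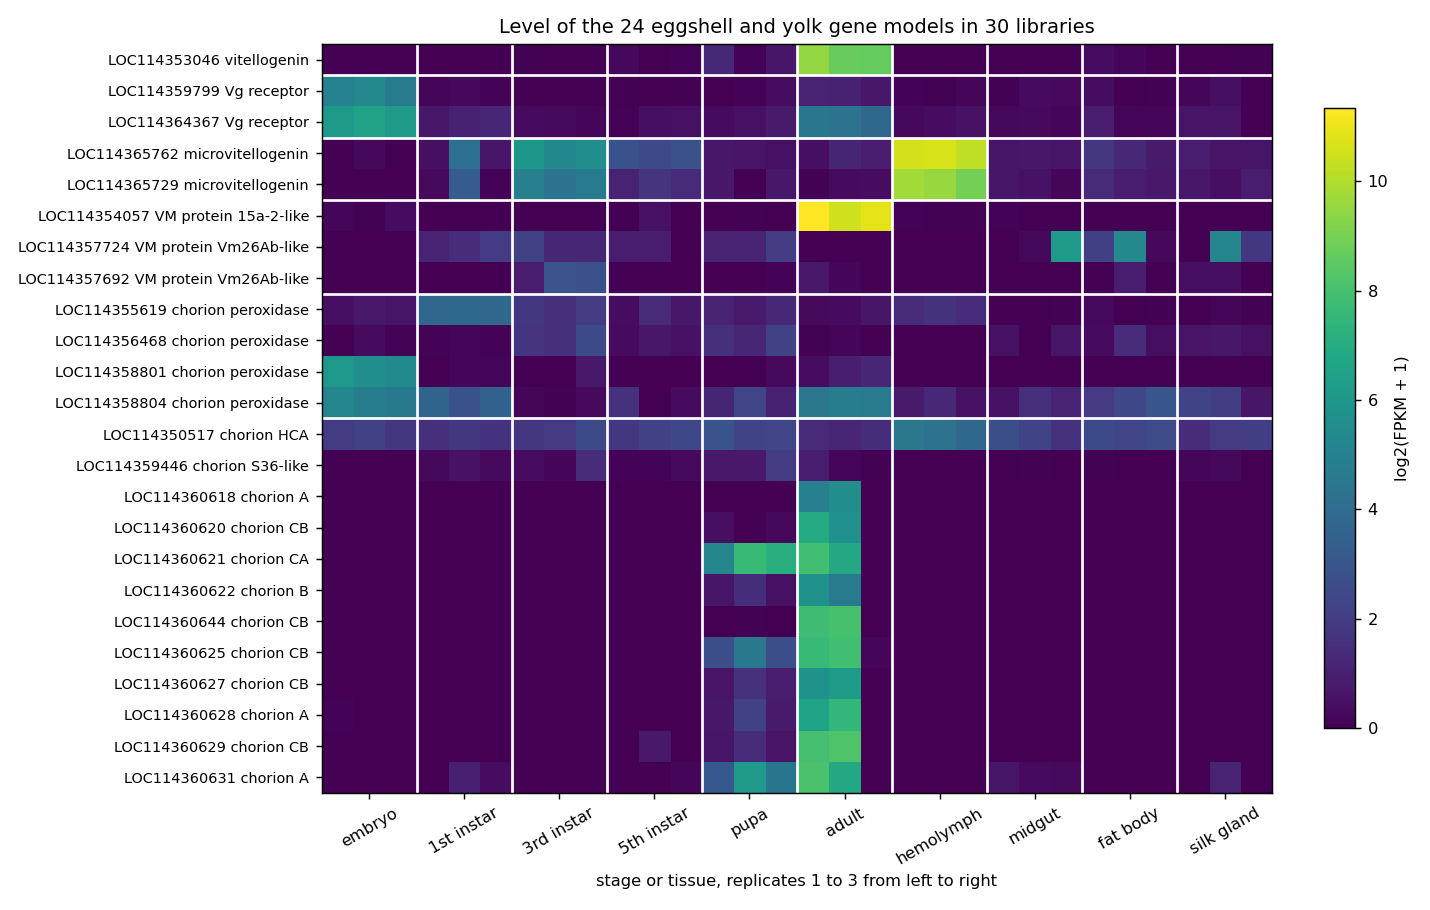
Level of each gene model (rows, grouped by role) in each of the 30 libraries (columns, replicates 1 to 3 from left to right within a stage or tissue), as log2(FPKM + 1) on the colour scale. The bright cells lie in the adult for vitellogenin, the vitelline membrane gene LOC114354057 and 10 chorion genes, in the embryo for the receptors, and in the hemolymph for the microvitellogenins; the third adult column is dark for the 10 chorion genes.

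Vitellogenin (LOC114353046, RefSeq symbol Vgn, NW_021131774.1:302990-309786, minus strand) stood at 714, 417 and 404 FPKM in the 3 adult libraries. The pupal libraries held 1.46, 0.0938 and 0.591 FPKM, and no other library exceeded 0.288 FPKM. The adult libraries therefore lay apart from all 27 others, with a mean of 512 ± 175 FPKM (SD, n = 3), and the gene ranked 154, 218 and 262 by FPKM in them. On log2(FPKM + 1), the adult was above the pupa by 8.25 (SE 0.35, adjusted p = 7.05e-06). The difference from the 5th instar was 8.83 (adjusted p = 1.99e-06) and that from the embryo 8.94 (adjusted p = 2.48e-07). In these whole-animal pools, fewer cells of a type and less RNA per cell cannot be told apart. The larval fat body, the tissue that makes vitellogenin in adult females, held 0.288, 0.115 and 0 FPKM.

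The vitelline membrane gene LOC114354057 (vitelline membrane protein 15a-2-like, NW_021132152.1:780125-784689, plus strand), named after a mosquito protein of the inner eggshell layer, was the most highly expressed member. Its adult libraries held 2566, 1465 and 1868 FPKM, a mean of 1966 ± 557 FPKM (SD, n = 3), and it ranked 34, 83 and 80. Elsewhere the highest library, a 5th instar one, held 0.406 FPKM. The difference from the pupa was 10.88 on log2(FPKM + 1) (SE 0.22, adjusted p = 5.19e-07), from the 5th instar 10.74 and from the embryo 10.69. Across the 30 libraries, Pearson's r of log2(FPKM + 1) between LOC114354057 and vitellogenin was 0.994, which is a description of points that share stages and libraries.

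Of the 12 chorion genes, 10 lay side by side on scaffold NW_021135346.1, between 346562 and 401986, in a stretch of 55425 bases with 15 gene models. They were 5 class CB genes, 3 class A genes, and 1 each of classes CA and B. Summed over the 10 genes, the adult libraries held 13932, 13771 and 1 fragments and the pupal libraries 509, 3240 and 1424. The 12 libraries of the stages before the pupa held 21 fragments together, and the 12 tissue libraries held 13. Chorion transcripts were thus at hand in all 3 pupal and in 2 of the 3 adult libraries, while adult replicate 3 had a single fragment.

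That library did hold other adult eggshell and yolk genes, although at the lowest share of fragments among the adult libraries. In adult replicates 1, 2 and 3, vitellogenin took 0.407%, 0.252% and 0.177% of recovered fragments. The vitelline membrane members took 0.261%, 0.158% and 0.147%, and the receptors 0.00839%, 0.00807% and 0.00415%. Adult replicate 3 held vitellogenin at 404 FPKM and LOC114354057 at 1868 FPKM, and its log2(FPKM + 1) over all gene models correlated with adult replicates 1 and 2 at r = 0.953 and 0.963, against 0.970 between those replicates. Of 5944 gene models at 5 FPKM or more in adult replicates 1 and 2, 37 had at most 5 fragments in adult replicate 3. Of these 37, 23 lay on the chorion scaffold, including the 10 chorion genes. The corresponding counts of gene models missing from 1 adult library were 5 for replicate 2 and 11 for replicate 1. Among the 14 others were LOC114364161, named follicle cell protein 3C-1, at 29.0, 9.64 and 0.276 FPKM in the 3 adult libraries, and 4 gene models of scaffold NW_021131456.1.

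Markers of the reproductive organs differed less between the adult libraries. The summed level of 51 testis and sperm genes was 176, 222 and 308 FPKM in adult replicates 1, 2 and 3, with fragments for 43, 42 and 39 of them. The summed level of 11 ovary and germ cell genes, all of them with fragments, was 372, 349 and 302 FPKM. All 11 also had fragments in the larval midgut libraries, where they summed to 179, 179 and 170 FPKM. Their sum therefore does not measure the ovary alone. Adult replicate 3 was highest in the testis and sperm sum and lowest in the ovary and germ cell sum. The part of this in the chorion result was not tested.

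**Figure D2:**
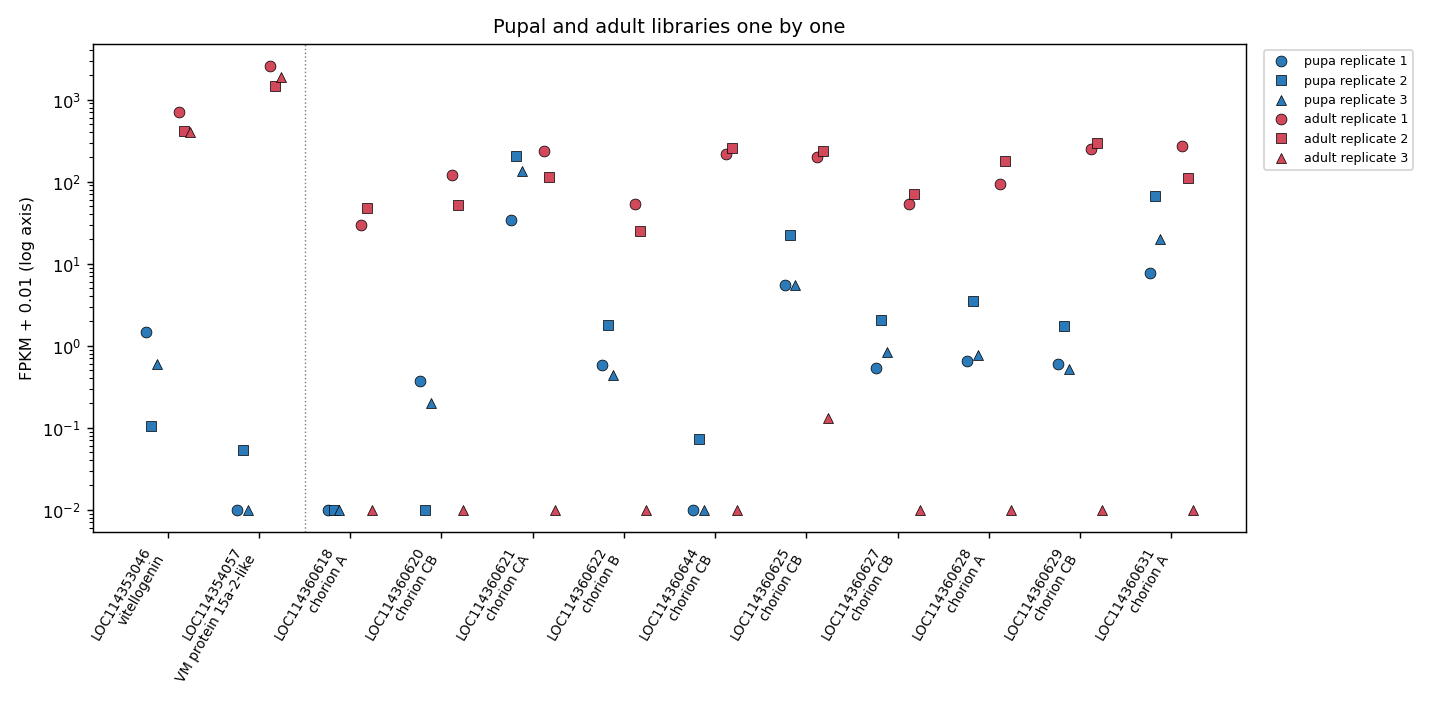
FPKM + 0.01 (log axis) of vitellogenin, the vitelline membrane gene LOC114354057 and the 10 clustered chorion genes in each pupal (blue) and adult (red) library, with the symbol giving the replicate. Adult replicate 3 (triangles) stands with the other adults for the first pair of genes, at 404 and 1868 FPKM, and at or near 0 for all chorion genes.

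The chorion genes differed in how far they were already expressed in the pupa. LOC114360621, the class CA gene (chorion class CA protein ERA.1-like), held 34.1, 203 and 136 FPKM in the pupal and 240, 113 and 0 FPKM in the adult libraries, so the pupal range overlapped that of the adults. LOC114360631, a class A gene, stood at 7.79, 67.4 and 19.9 FPKM in the pupa and at 272, 112 and 0 FPKM in the adult. LOC114360625, a class CB gene, held 5.54, 22.1 and 5.52 FPKM in the pupa and 202, 237 and 0.123 FPKM in the adult. These 3 genes had the highest pupal levels, and pupal replicate 2 was the highest pupal library for each of them.

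The other 7 were at most 3.52 FPKM in any pupal library and were high in adult replicates 1 and 2. LOC114360629 (class CB) held 250, 299 and 0 FPKM in the 3 adult libraries and LOC114360644 (class CB) held 220, 261 and 0 FPKM, after 0, 0.0622 and 0 FPKM in the pupa. LOC114360628 (class A, L11-like) held 94.1, 177 and 0 FPKM, and its pupal libraries 0.650, 3.52 and 0.756 FPKM. Adult replicates 1 and 2 lay between 24.7 and 122 FPKM for the remaining 4, which were LOC114360618 (class A), LOC114360620 and LOC114360627 (class CB) and LOC114360622 (class B). LOC114360618 had no fragment in any pupal library. The 5 class CB genes share a description, as do LOC114360618 and LOC114360631. How alike their sequences are was not analysed, and how the authors' counting treated fragments that match more than 1 gene is uncertain.

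In the pupa against the 5th instar, 4 of the 10 members tested were higher and 1 was lower, where 7.82% and 12.4% of all genes tested were. With scaling by recovered fragments 8 of 12 members tested were higher, where 35.4% of all genes were. With limma-voom 8 of 10 were, where 43.3% of all genes were. The members' median was 0.85 against 0.03 for all genes on log2(FPKM + 1). The 4 were the 3 chorion genes with the highest pupal levels and the peroxidase LOC114356468, and the 1 was the microvitellogenin LOC114365762 (-2.10, SE 0.17, adjusted p = 0.000931). The 3 chorion genes passed the filter only through the pupal libraries, where they were high, so the count and the median are descriptive. LOC114360621 and LOC114360625 had no fragment in the 5th instar, which puts the pupal mean of LOC114360621, 124 FPKM, at least 209-fold higher than the floor of 3 fragments per library. Their fitted differences were 6.63 (SE 0.61, adjusted p = 0.00117) and 3.31 (SE 0.49, adjusted p = 0.00480), and that of LOC114360631 was 4.48 (SE 0.68, adjusted p = 0.00515). With all libraries in one fit, the call of LOC114360625 was lost (adjusted p = 0.0691).

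In the adult against the pupa, 14 members were tested, and 4 were higher and 3 lower, where 21.9% and 25% of all genes tested were. Scaling by recovered fragments gave 4 higher and 5 lower of 16 tested, where 11.1% and 41.8% of all genes were. With all libraries in one fit 8 were higher, where 21.9% of all genes were, and the added 4 were the clustered chorion genes LOC114360622, LOC114360627, LOC114360628 and LOC114360629. The median was 2.77 for the members and -0.07 for all genes. The 4 that rose with the 6 libraries of the comparison alone were LOC114354057, vitellogenin, the receptor LOC114364367 and the peroxidase LOC114358804. No clustered chorion gene was among them, and the 3 that fell were LOC114350517, LOC114356468 and LOC114357724. LOC114360618, LOC114360620 and LOC114360644 did not have 1 FPKM in 3 libraries and were not tested, and the others had adjusted p-values between 0.0911 (LOC114360629, difference 4.50, SE 2.04) and 0.861 (LOC114360631). Among the called members, LOC114354057, vitellogenin and LOC114364367 passed the filter only through the adult libraries. LOC114356468 and LOC114357724 passed it only through the pupal ones, so the counts and the median are descriptive.

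Without adult replicate 3, a fit chosen after the data were seen, 13 of 19 members tested were higher, where 21.8% of all genes were. Among the 13 were 9 of the 10 clustered chorion genes. Of these, LOC114360618, LOC114360620 and LOC114360644 passed the filter only through adult replicates 1 and 2. LOC114360622, LOC114360627, LOC114360628 and LOC114360629 reached 1 FPKM in the pupa only in replicate 2, at 1.77, 2.06, 3.52 and 1.75 FPKM. They too would not have passed without the adult libraries, so this count is descriptive. LOC114360629 then differed by 7.20 (SE 0.31, adjusted p = 8.92e-05) and LOC114360644 by 7.88 (SE 0.17, adjusted p = 2.24e-05). The exception was LOC114360621, at 0.74 (SE 0.79, adjusted p = 0.442), against -1.72 (SE 1.95, adjusted p = 0.467) with all 3 adult libraries. The same library set the count against the 5th instar, where 4 members were higher and 2 lower of 7 tested (20.3% and 24.7% of all genes). Without it, 15 of 18 tested were higher (19.8% of all genes). Against the embryo, 2 members were higher and 3 lower of 7 tested (35.8% and 26.3% of all genes). With scaling by recovered fragments 2 and 5 were (22.1% and 46% of all genes). Without adult replicate 3, 12 of 17 tested were higher (35% of all genes). The members' median was 3.81 against the 5th instar and -0.64 against the embryo, beside -0.06 and 0.32 for all genes. Without adult replicate 3, the median was 6.15 over 18 members against the 5th instar and turned to 6.34 over 17 members against the embryo. More members passed the filter, then 1 FPKM in 2 libraries, and the clustered chorion genes did so only through adult replicates 1 and 2. The 5th instar and the embryo held these genes at or near 0, so their higher calls and the new medians are descriptive. With no filter and all 3 adult libraries, 4 of 24 members were higher and 2 lower against the 5th instar (10.8% and 13% of all genes). Against the embryo, 2 of 24 were higher and 3 lower (20% and 14.1% of all genes). The part of the filter and that of the library left out were not tested. The 3 adult comparisons share the adult libraries. LOC114354057 and vitellogenin passed the filter in all 3 only through those libraries.

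**Figure D3:**
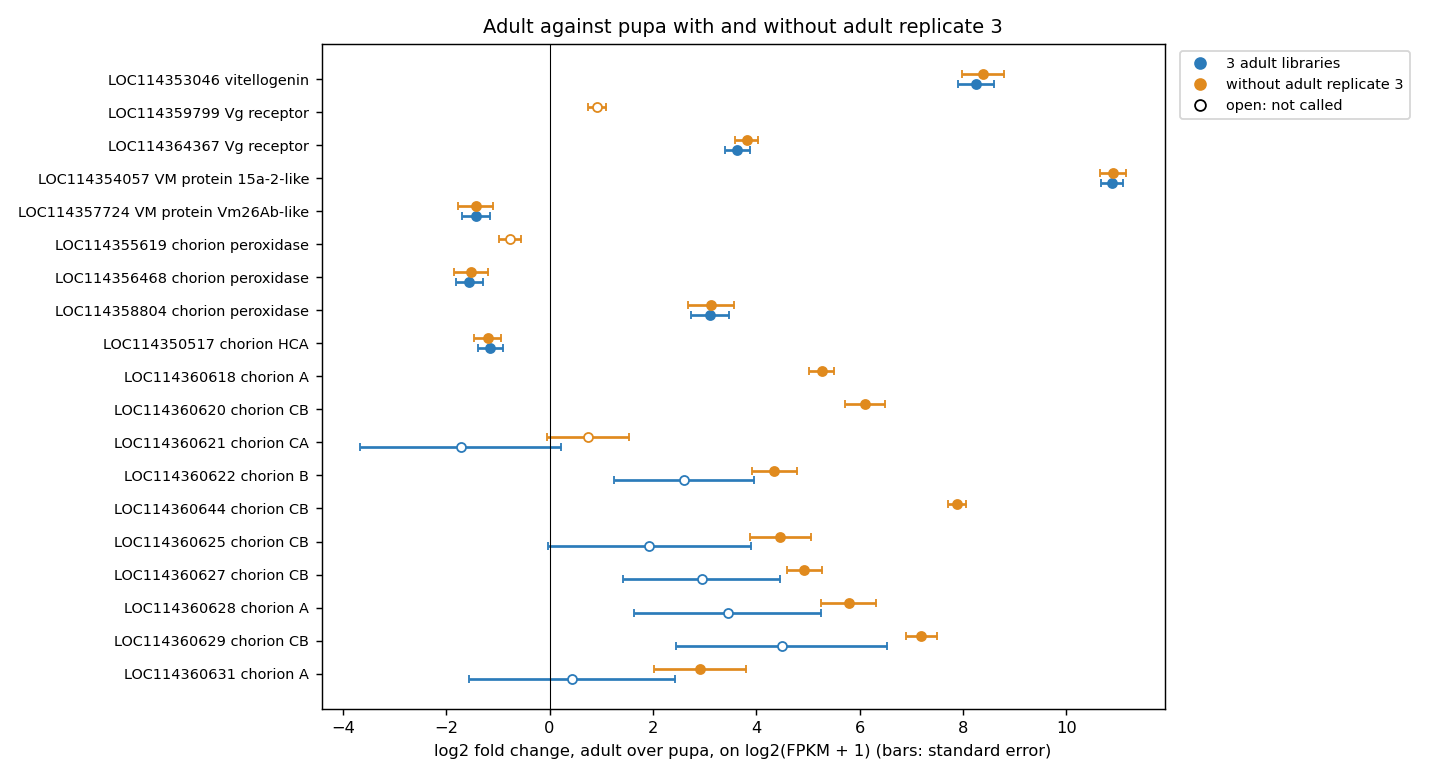
Difference between adult and pupa on log2(FPKM + 1) with its standard error, for 3 adult libraries (blue) and without adult replicate 3 (orange); filled points were called at an adjusted p under 0.05 and a difference of at least 1 in size. The clustered chorion genes tested with all libraries have wide bars and open points, and LOC114360618, LOC114360620 and LOC114360644 have no blue point. Without adult replicate 3, 9 of the 10 clustered genes are filled, while vitellogenin and LOC114354057 hardly move.

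Along the scaffold, the chorion genes lay in runs of up to 3 with 5 gene models of other or no names between them. The 23 gene models that were at 5 FPKM or more in adult replicates 1 and 2 and nearly without fragments in replicate 3 ran from 320976 to 488562, and 13 of them were not members. Only some of these 13 carried a protein name, namely acanthoscurrin-2-like (LOC114360619), fibroin heavy chain-like (LOC114360623), ATP-dependent RNA helicase glh-2-like (LOC114360630) and PE_PGRS33-like (LOC114360632). The others had no description or were uncharacterized. LOC114360623 stood at 158, 209 and 0 FPKM in the adult libraries although its name places it in the list of silk gland markers. LOC114360626, a further acanthoscurrin-2-like gene inside the stretch, held 244, 306 and 4.73 FPKM.

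The gene order included 7 pairs of neighbours, each with at least 1 chorion gene, that were transcribed away from each other, and the members of a pair shared the direction of the difference between adult replicates 1 and 2. LOC114360629 and LOC114360630 lay 727 bases apart, with replicate 1 over replicate 2 at 0.837 and 0.808. LOC114360621 and LOC114360622 lay 3454 bases apart, with ratios of 2.12 and 2.15. The pair LOC114360623 and LOC114360644 (345 bases apart, 0.756 and 0.845), the pair LOC114360625 and LOC114360626 (344 bases, 0.853 and 0.799) and the pair LOC114360627 and LOC114360628 (323 bases, 0.752 and 0.531) were likewise lower in replicate 1. The pair LOC114360619 and LOC114360620 (1564 bases, 1.89 and 2.34) and the pair LOC114360631 and LOC114360632 (1651 bases, 2.43 and 4.08) were higher in replicate 1. The pairs higher in replicate 1 thus lay towards the ends of the stretch and those lower in it in the middle, although LOC114360618, the first chorion gene of the stretch and in no such pair, was also lower in replicate 1 (29.6 against 47.3 FPKM). This was seen after the values were known, rests on single libraries and has no test.

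**Figure D4:**
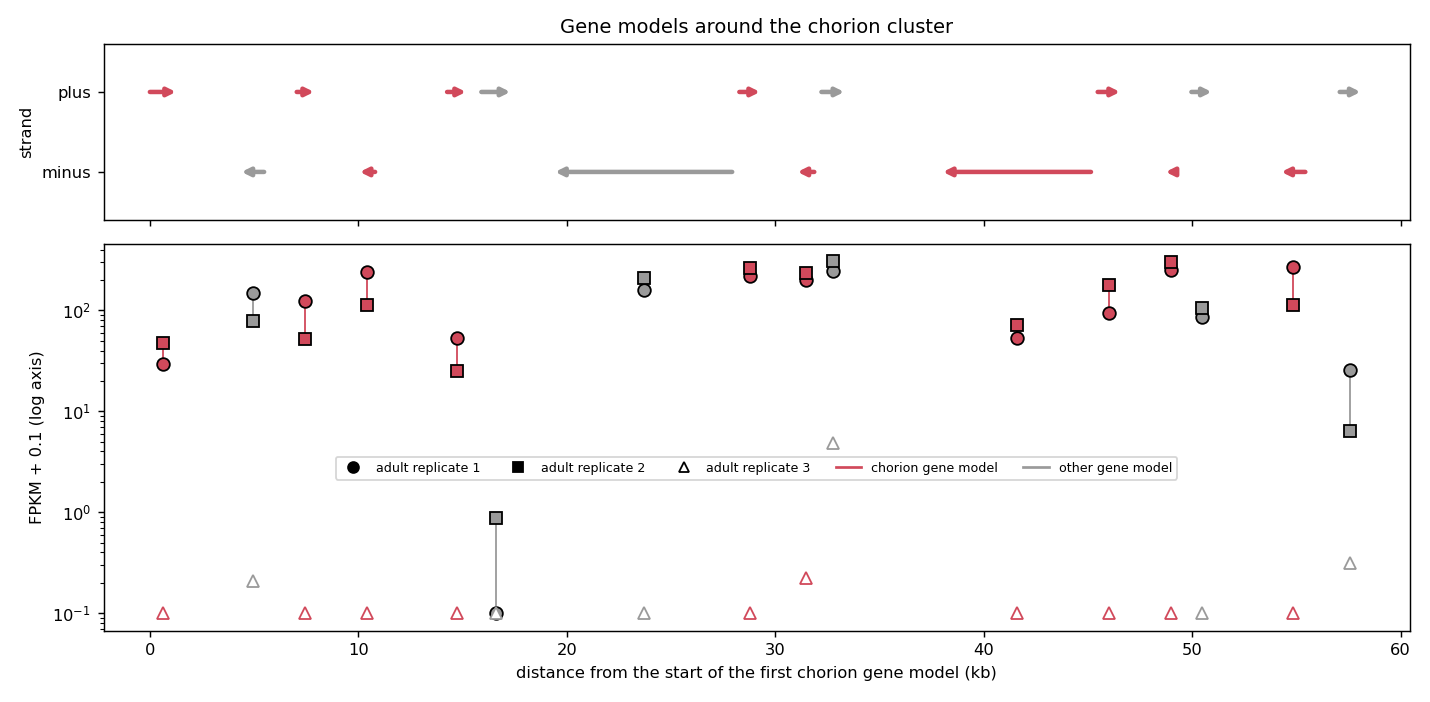
Top, the gene models of the chorion stretch by strand, with chorion genes in red and others in grey, by distance in kilobases from the start of the first chorion gene. Bottom, FPKM + 0.1 (log axis) of each in adult replicates 1 (circles), 2 (squares) and 3 (open triangles); the inner genes had squares above circles, as for LOC114360629 at 299 and 250 FPKM, and triangles lie at the bottom apart from LOC114360626 at 4.73 FPKM.

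Over the 30 libraries, the 45 pairs among the clustered chorion genes had Pearson's r of log2(FPKM + 1) from 0.631 to 0.999 with a median of 0.960. The mean profile of the 8 chorion genes that reached the filter, which included LOC114350517 from outside the cluster, was used to find the genes most like it. The 10 closest non-members had r from 0.914 to 0.964, and 5 of them lay on the chorion scaffold. The closest, LOC114355714, an uncharacterized gene of another scaffold, held 77.7, 37.7 and 0 FPKM in the adult libraries and a mean of 13.9 FPKM in the pupa. LOC114351873 (extensin-2-like) and LOC114351878 of scaffold NW_021131456.1 were also among the 10. All these correlations share the adult libraries, including replicate 3.

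Both putative vitellogenin receptors were highest in the embryo. LOC114364367 (NW_021137632.1:243021-259142, minus strand) held 65.9, 89.8 and 67.4 FPKM in the embryo and 20.6, 18.6 and 13.2 FPKM in the adult. No library of another stage or tissue exceeded 1.34 FPKM, so embryo, adult and the rest formed 3 separate ranges. The embryo was above the 1st instar by 5.24 (SE 0.20, adjusted p = 1.23e-06). The adult was above the pupa by 3.64 (SE 0.24, adjusted p = 5.06e-05) and its difference from the embryo was -2.04 (SE 0.22, adjusted p = 9.88e-05).

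LOC114359799 (NW_021134898.1:315342-363086, plus strand) stood at 31.2, 39.5 and 24.2 FPKM in the embryo and at only 1.15, 1.07 and 0.680 FPKM in the adult. It was above the 1st instar by 4.82 (SE 0.21, adjusted p = 2.12e-06), and the adult differed from the embryo by -4.04 (SE 0.24, adjusted p = 9.16e-06). The proportions of the 2 receptor genes differed between the embryo libraries and the adult libraries, which hold both sexes. The ratio of LOC114364367 to LOC114359799 in FPKM was 2.11, 2.27 and 2.78 in the embryo libraries and 17.9, 17.5 and 19.4 in the adult libraries. Whether the 2 gene models, which lie on different scaffolds, are parts of 1 gene was not tested.

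The 4 gene models named chorion peroxidase had 3 different peaks. LOC114358801 (NW_021134354.1:103489-108630, plus strand) held 63.9, 48.2 and 42.4 FPKM in the embryo against 0.297, 0.916 and 1.30 FPKM in the adult and at most 0.726 FPKM elsewhere. Its neighbour LOC114358804 (115009-137654 on the same scaffold and strand) held 35.4, 26.7 and 23.0 FPKM in the embryo and 21.6, 26.7 and 23.4 FPKM in the adult, with overlapping ranges. The ratio of LOC114358801 to LOC114358804 was 1.81, 1.80 and 1.84 in the embryo libraries and 0.0138, 0.0343 and 0.0556 in the adult libraries. The ratio was thus steady between the embryo libraries, and of the pair only LOC114358804 had adult libraries, as deposited, within the embryonic range or near it.

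For LOC114358801, the embryo was above the 1st instar by 5.59 (SE 0.20, adjusted p = 8.69e-07), and the adult differed from the embryo by -4.85 (SE 0.28, adjusted p = 7.25e-06). For LOC114358804, the adult was above the pupa by 3.11 (SE 0.37, adjusted p = 0.000398) and the embryo above the 1st instar by 1.51 (SE 0.26, adjusted p = 0.00140). Its difference between adult and embryo was -0.22 (SE 0.20, adjusted p = 0.336), and it was called lower in the adult with scaling by recovered fragments (-1.47, adjusted p = 0.00128).

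LOC114355619, whose RefSeq symbol cd is that of the *Drosophila* gene cardinal, a peroxidase of eye pigment synthesis, was highest in the 1st instar at 12.2, 12.9 and 12.5 FPKM. The embryo held 0.372, 0.715 and 0.580 FPKM, a difference of -3.12 (SE 0.17, adjusted p = 4.60e-06). LOC114356468 was highest in the 3rd instar, at 2.27, 1.96 and 4.75 FPKM, and second in the pupa, at 1.86, 1.30 and 3.57 FPKM. It fell from pupa to adult (-1.55, SE 0.26, adjusted p = 0.00174), and its rise from the 5th instar to the pupa (1.10, adjusted p = 0.0282) was lost in 5 of the fits that left out 1 library. Neither of these 2 peroxidase genes had its highest level where eggs are made or laid.

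In the embryo against the 1st instar, 4 of 7 members tested were higher (24.7% of all genes) and 2 were lower (34.6% of all genes), with a median of 1.51 against -0.14 for all genes. With scaling by recovered fragments 5 were higher, where 48.6% of all genes were. With medians of ratios as scaling, 4 were higher and 1 lower of 6 tested. The 4 were the receptors and the neighbouring peroxidases. LOC114358801 and LOC114359799 passed the filter only through the embryo libraries, and the lower LOC114355619 and LOC114357724 only through the 1st instar ones. Vitellogenin was at most 0.0107 FPKM and LOC114354057 at most 0.281 FPKM in the embryo, and of the 10 clustered chorion genes only LOC114360628 had any fragment there.

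The microvitellogenins marked the larval hemolymph. Microvitellogenin is a small protein of the egg yolk of the hawkmoth *Manduca sexta*, taken up from the hemolymph. LOC114365762 held 1564, 1599 and 1206 FPKM in the hemolymph libraries, where it ranked 47, 51 and 79, and 62.4, 38.1 and 45.6 FPKM in whole 3rd instar larvae. LOC114365729, on the same scaffold (NW_021130696.1) and strand, held 876, 770 and 501 FPKM in hemolymph and 29.8, 18.8 and 24.7 FPKM in the 3rd instar. Midgut, fat body and silk gland libraries were at most 2.43 FPKM for LOC114365762 and 1.63 FPKM for LOC114365729. The hemolymph lay far above all other groups for both genes, and their r over the 30 libraries was 0.991.

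Adults, in which yolk is formed, held LOC114365762 at 0.364, 1.23 and 0.810 FPKM and LOC114365729 at 0.0428, 0.247 and 0.293 FPKM. Against the 5th instar, the adult differed by -1.91 (SE 0.26, adjusted p = 0.000844) and -1.15 (SE 0.21, adjusted p = 0.00306). The second of these calls was lost without 5th instar replicate 2 (difference -0.99). One 1st instar library stood apart, with 0.369, 16.3 and 0.610 FPKM of LOC114365762 and 0.217, 8.87 and 0.0821 FPKM of LOC114365729 in replicates 1, 2 and 3.

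In hemolymph against the mean of the other tissues, a comparison added after the data were seen, 4 of 6 members tested were higher (12.5% of all genes) and 0 were lower (23% of all genes). With scaling by recovered fragments the member counts were the same, but 48.9% of all genes were higher and 12.1% lower. At an unadjusted p under 0.05, 1 member was lower, and limma-voom also called 0. LOC114365762 differed by 9.61 (SE 0.19, adjusted p = 8.43e-11) and LOC114365729 by 8.72 (SE 0.22, adjusted p = 1.80e-10). The other 2 were LOC114350517 (2.01) and LOC114355619 (1.39). The members' median was 1.70 against -0.18 for all genes.

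**Figure D5:**
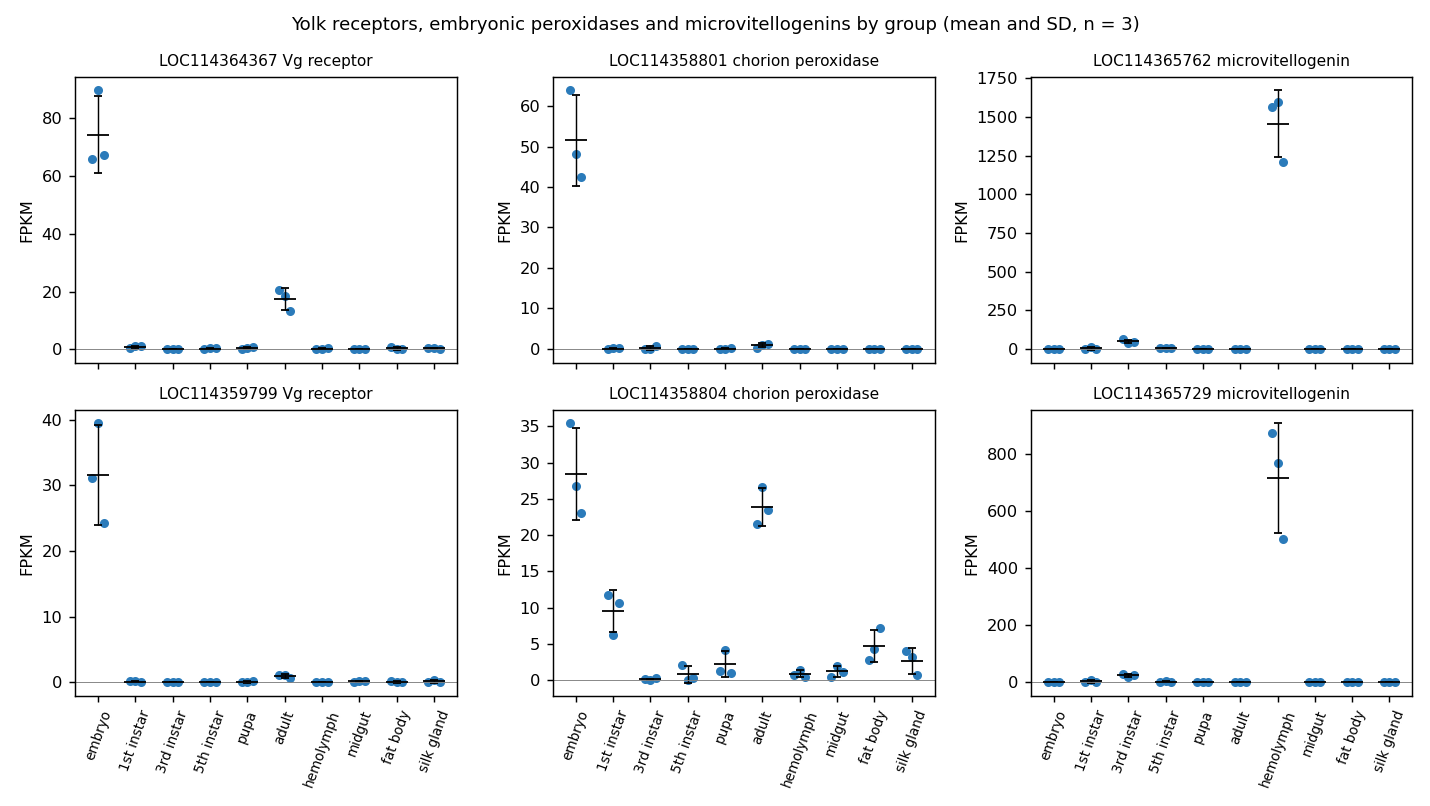
FPKM of both receptors (left), the neighbouring peroxidases (middle) and both microvitellogenins (right) in each stage and tissue, with a blue point per library and the mean and SD (n = 3) in black. Receptors and LOC114358801 peak in the embryo, LOC114358804 is at 28.4 FPKM in the embryo and 23.9 FPKM in the adult, and the microvitellogenins peak in hemolymph.

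In the fat body against the mean of the other tissues, 1 of 6 members tested was higher (15% of all genes) and 2 were lower (12.8% of all genes), with a median of -0.33 against -0.11 for all genes. With scaling by recovered fragments, 0 were higher and 2 lower. The 1 was LOC114358804, at 2.73, 4.35 and 7.12 FPKM in the fat body, with a difference of 1.23 (SE 0.36, adjusted p = 0.0154) that was lost without fat body replicate 3 (adjusted p = 0.0984). The 2 were the microvitellogenins, with differences of -2.66 and -2.52. Their fat body libraries, at 0.739 to 2.43 FPKM and 0.696 to 1.63 FPKM, were not below those of midgut and silk gland, and the mean of the other tissues was set by hemolymph.

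Some other members also had levels or annotations that go against an eggshell label. LOC114350517 (chorion class high-cysteine HCA protein 12-like) was highest in hemolymph, at 21.7, 18.2 and 13.3 FPKM, had a mean of at least 1.59 FPKM in every group, and was lowest in the adult. LOC114359446 (chorion protein S36-like) is CPR79 in RefSeq, a name of cuticle proteins, and its annotation holds a chitin-binding domain. It was at most 3.08 FPKM, in a pupal library. LOC114357724 (vitelline membrane protein Vm26Ab-like) is CPH18 in RefSeq, again a name of cuticle proteins. It had no fragment in any embryo, adult or hemolymph library, and its 1st instar libraries held 1.10, 1.74 and 2.99 FPKM. The embryo was called lower than the 1st instar (-1.51, SE 0.23, adjusted p = 0.000727).

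The level of LOC114357724 was set by single libraries within tissues. Midgut libraries held 0, 0.168 and 67.6 FPKM, fat body libraries 3.44, 38.9 and 0.195 FPKM and silk gland libraries 0, 34.1 and 2.53 FPKM. The 3 tissues overlapped fully, and their means cannot be ordered. LOC114357692, of the same name and scaffold, was highest in the 3rd instar at 0.833, 6.87 and 5.74 FPKM, and was at most 0.724 FPKM in the adult. The vitelline membrane name thus went with adult expression for LOC114354057 and not for these 2 genes.

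Other genes of egg formation, taken by words in their descriptions, changed in both directions between pupa and adult, where 21.9% of all genes tested were higher and 25% lower, with a median of -0.07. Of 23 genes of egg formation and oocyte patterning, 20 were tested, 8 were higher and 7 lower in the adult, with a median of 0.69. Nudel (LOC114366233), a protease that follicle cells of *Drosophila* add to the eggshell, held 37.8, 23.3 and 18.2 FPKM in the adult (difference 4.42, adjusted p = 4.61e-05). Nanos (LOC114357926), a germline regulator of translation, stood at 47.3, 41.2 and 30.2 FPKM (4.63, adjusted p = 1.17e-05). Both were present in adult replicate 3, at the lowest of the 3 adult levels.

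The lists below have the same background, 21.9% of all genes higher and 25% lower in the adult than in the pupa. Of 51 hormone genes, 30 were tested, with 6 higher and 11 lower in the adult and a median of -0.65. Kr-h1 (LOC114359886, Krueppel homolog 1-like), a transcription factor induced by juvenile hormone, was higher in the adult at 30.15, 30.03 and 44.64 FPKM (4.54, adjusted p = 1.45e-05), and the ecdysone receptor gene LOC114360304 was lower at 6.96, 6.18 and 8.93 FPKM (-1.98, adjusted p = 0.000400). Of 31 genes of eggshell transcription and DNA replication, 28 were tested, with 9 higher and 5 lower and a median of 0.48. Origin recognition complex subunit 2 (LOC114365684), part of the complex that starts DNA replication, was at 16.5, 22.9 and 12.3 FPKM (1.83, adjusted p = 0.000653). Of 18 genes of yolk and lipid uptake, 11 were tested, with 1 higher and 4 lower and a median of -0.64. The word search also took in unrelated names such as DEAD-box helicases, which stay in these counts.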

How the data were processed

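Total RNA of 30 pooled samples was sequenced on an Illumina instrument. Per the methods of the study, reads were filtered by fastp and mapped by HISAT2 (2.0.5 per the labels), and RSEM gave the expression levels. The values deposited by the authors are FPKM, which the header does not name. Each value multiplied by gene length was a whole multiple of 1 amount per library, so the fragments per gene could be recovered (100.0% of values up to 200 fragments were whole within 0.02). Relative to total fragments, the authors' scaling factor ranged from 0.447 to 2.42 between libraries. Positions are those of the deposited table. Names and symbols were matched by gene ID to RefSeq, assembly ASM419383v2.

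Genes that reached 1 FPKM in 3 or more libraries of a comparison (2 where a library was left out) were tested with limma 3.58.1 (trend) in R 4.3.3 on log2(FPKM + 1). A gene near 0 in a group could pass only through the group where it was high, so counts of members called are descriptive. P-values were adjusted by Benjamini-Hochberg over all genes tested, and a gene was called at an adjusted p under 0.05 and a difference of at least 1 in size. All differences are on this scale, which understates changes of low genes. Replicate numbers did not pair the samples. On simulated data for adult against pupa, 182 of 200 genes changed by 2 on the log2 scale were called, with 4 unchanged genes called. The simulation had a fixed spread between libraries, changed only genes well above the floor and scaled each library to its total. It therefore does not cover members near 0 or genes missing from a single library. Alternatives were the pseudocount (0.1), no filter, scaling by recovered fragments or medians of ratios, limma-voom on the recovered fragments, all libraries in one fit, a replicate block and leaving out each library.

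Members, lists and tests were chosen with earlier results of these data known. The rule for named genes gave all members, in full the 6 highest of each role and those called in the embryo or fat body comparison, and the 10 non-members most like the chorion profile. The genes named from the lists and the neighbours on the chorion scaffold were chosen after their values were seen. Sequences were not analysed here.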

Additional observations from a re-analysis of the deposited data

How the results depend on the processing

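No called difference was reversed under any alternative run. The signs of uncalled differences were compared in the alternatives that kept every library and in the fits without adult replicate 3. LOC114360631 in adult against pupa (0.43) turned to -0.19 with scaling by recovered fragments, -0.60 with a pseudocount of 0.1 and -1.51 with limma-voom. LOC114360621 turned to 0.74 without adult replicate 3, and LOC114358804 in hemolymph turned to 0.03 with limma-voom. Sign changes of uncalled differences in the other fits that left out a library are not listed. Scaling by recovered fragments shifted the median difference of all genes by -0.68 (adult against pupa), -1.16 (adult against embryo), 0.75 (pupa against 5th instar), 1.10 (embryo against 1st instar), 1.15 (hemolymph), -0.48 (fat body) and 0.17 (adult against 5th instar), and limma-voom by up to 1.46. With that scaling, members lower numbered 5 of 16 tested in adult against pupa and 5 of 7 in adult against embryo. Members higher numbered 8 of 12 in pupa against 5th instar and 0 of 6 in fat body. Limma-voom gave 5 lower in adult against embryo and 8 higher in pupa against 5th instar. All libraries in one fit gave 8 higher in adult against pupa, 1 lower in adult against 5th instar and 1 lower in hemolymph, and medians of ratios gave 1 lower in embryo against 1st instar. The cause was not tested.

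Leaving out 1 library at a time gave 4 to 13 members higher against the pupa, 4 to 15 against the 5th instar and 2 to 12 against the embryo, with the highest count in each without adult replicate 3. Members lower ranged from 1 to 2 in adult against 5th instar (1 without 5th instar replicate 2) and in pupa against 5th instar (2 without 5th instar replicate 1). Fat body higher ranged from 0 to 1 (0 without fat body replicate 3) and hemolymph lower from 0 to 1 (1 without silk gland replicate 3). Same-numbered libraries did not deviate together, and the replicate block gave 4 higher and 3 lower in adult against pupa. It ended 1 call, that of LOC114356468 in pupa against 5th instar (adjusted p = 0.0522).

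Over all genes, scaling by recovered fragments gave 1455 higher and 5500 lower in adult against pupa (2681 and 3056 as reported), 2681 and 5571 in adult against embryo (4069 and 2986), 4561 and 842 in pupa against 5th instar (950 and 1500), 5916 higher in embryo against 1st instar (2843), 1180 and 3239 in fat body (1843 and 1573) and 5882 and 1454 in hemolymph (1537 and 2828), and limma-voom moved these counts the same way. Levels that rest on 1 to 3 fragments cannot be told from 0.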
